A study of Mus musculus and Sus scrofa with 18 samples.

Results

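The genes described here were the potassium channel genes of the mouse striatum, taken as every gene of the mouse count table whose symbol begins with Kcn and whose counts over the 9 libraries add up to at least 10. Of 99 Kcn symbols in a table of 55357 genes, 4 belonged to opposite-strand transcripts (Kcnmb4os1, Kcnmb4os2, Kcnab3os and Kcnd3os) and were left out, 5 held fewer than 10 counts, and 90 remained. The symbols of the 4 excluded transcripts end in os, os1 or os2, and those with a number were treated in the same way as those without. Beyond the symbol, members were chosen by the summed count alone, which ignores the groups. Kcnj15, with 9 counts, lay just outside this limit and Kcnmb3, with 15, just inside it. Of the 90 members, 89 are annotated as protein coding and Kcnq1ot1, a long non-coding RNA transcribed antisense to Kcnq1, is not a channel. It was kept because its symbol meets the rule, and because the strand setting of the counting was not given in the sources used here, its reads cannot be told apart from those of genes it overlaps.

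Groups of WT, untreated HD and treated HD mice were compared, with 3 animals in each and 1 striatal library for each animal. WT mice received AAV9 carrying a control gRNA (Ctrl gRNA) without CasRx, an enzyme that cuts RNA at sites matched by its guide. Untreated HD mice were heterozygous 140Q knock-ins, in which a human exon 1 of HTT with a long CAG repeat stands in place of the mouse one, and received AAV9-CasRx with Ctrl gRNA. Treated HD mice had the same genotype and received AAV9-CasRx with 4 guides against HTT, shared between a pair of vectors. CasRx was driven by the ubiquitous CAG promoter and the guides by U6, virus was injected into the striatum on both sides at 6 months of age, and tissue was taken 6 weeks later. All 9 mice therefore carried AAV9, and any difference between untreated HD mice and WT mice covers the knock-in allele and CasRx together.

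Potassium channels let potassium leave or enter the cell and so set the resting potential, the shape of the action potential and the rate of firing. Pore-forming subunits opened by depolarization (Kv), by calcium or sodium, by G proteins or by hyperpolarization relative to the potassium equilibrium (Kir), and leak channels with a pair of pore domains in each subunit (K2P), are combined with accessory subunits that change their gating and traffic. The striatal projection neuron, the main cell of the striatum, is known for strong inward rectification that holds it at a very negative potential between bursts, and for A-type and slowly inactivating Kv currents that delay its first spike.

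Total counts ran from 27184356 to 32102121 per library, and levels are given as CPM, counts scaled to library sizes that were adjusted with TMM factors. Htt itself read at 189, 191 and 181 CPM in WT mice, 145, 140.3 and 149 in untreated and 139.6, 130.4 and 136 in treated HD mice, so that all HD mice lay below all WT mice and the treated just below the untreated mice. Between the HD groups its log2 fold change was -0.10 ± 0.06 (SE), which did not pass (quasi-likelihood F test of edgeR, adjusted p = 0.942). For 8.83% of all 19463 tested genes every treated mouse lay below every untreated mouse. These counts pool the transcripts of the knock-in and the normal allele, while the guides were designed against human exon 1. They therefore do not measure the knock-in transcript alone. The paper measured mutant HTT mRNA by RT-qPCR and reported it reduced in mice treated at this age. Summed over 14 markers of striatal projection neurons, levels were 6561, 8399.6 and 8814 CPM in WT mice, 2276, 2701 and 2315 in untreated HD mice and 3615, 3527 and 3618 in treated HD mice, and in bulk tissue fewer cells of a type and less RNA per cell cannot be told apart. The 5 cortical neuron markers summed to 858, 365 and 196 CPM in WT mice, 1153, 974 and 1154 in untreated and 725, 728 and 664 in treated HD mice, with WT mouse 1 above the other WT mice and above all treated mice. The 7 choroid plexus markers summed to 65.9, 3781 and 1224 CPM in WT mice, 187, 49.9 and 37.1 in untreated and 244, 39.3 and 1289 in treated HD mice. Transcripts of 4 Y-linked genes were counted in all 3 WT mice and in untreated mouse 1 and in none of the other libraries, so sex differed between the groups.

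Untreated HD mice were compared with WT mice to find out which potassium channel genes differ in the diseased striatum. Of the 83 members with enough counts to be tested, 21 passed an adjusted p of 0.05 (quasi-likelihood F test of edgeR, with p-values adjusted by Benjamini and Hochberg's method over all 19463 tested genes). The 12 lower genes were Kcna5, Kcnh4, Kcnab1, Kcnn3, Kcnip2, Kcna4, Kcnj2, Kcng3, Kcnj4, Kcnk2, Kcnd2 and Kcnt1, and 6.1% of all tested genes were called lower in this comparison against 14.5% of the members. Of the 9 higher genes, Kcnh7, Kcnj3, Kcnj6, Kcnab3, Kcnj16, Kcnq1ot1 and Kcnk3 are described here, and 4.58% of all tested genes were called higher against 10.8% of the members. By the rule of an unadjusted P under 0.05 with at least a 2-fold change, 12 members passed, 5 higher and 7 lower, where 8.16% of all tested genes did so. The median log2 fold change was 0.05 over the 83 members and 0.02 over all tested genes.

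The number of members called lower depended little on single mice, and the number called higher depended on them strongly. Between 10 and 14 members were called lower whichever mouse was left out. The number called higher was 16 without WT mouse 1, 1 without WT mouse 2, 3 without WT mouse 3, 1 without untreated mouse 1, 0 without untreated mouse 2, 7 without untreated mouse 3, 3 without treated mouse 1, 5 without treated mouse 2 and 3 without treated mouse 3. With a term for the presence of Y-linked transcripts, 6 members stayed called, Kcnab1, Kcnh4, Kcnn3 and Kcnk2 lower and Kcnab3 and Kcnk3 higher, and none of the 21 changed its direction. Untreated mouse 1 was the only HD mouse with these transcripts, so this fit in effect set that mouse alone against the WT mice. It therefore cannot separate sex from that mouse. Kcnab3 and Kcnk3 were highest in untreated mouse 1, and both calls were lost when it was left out.

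**Figure D1:**
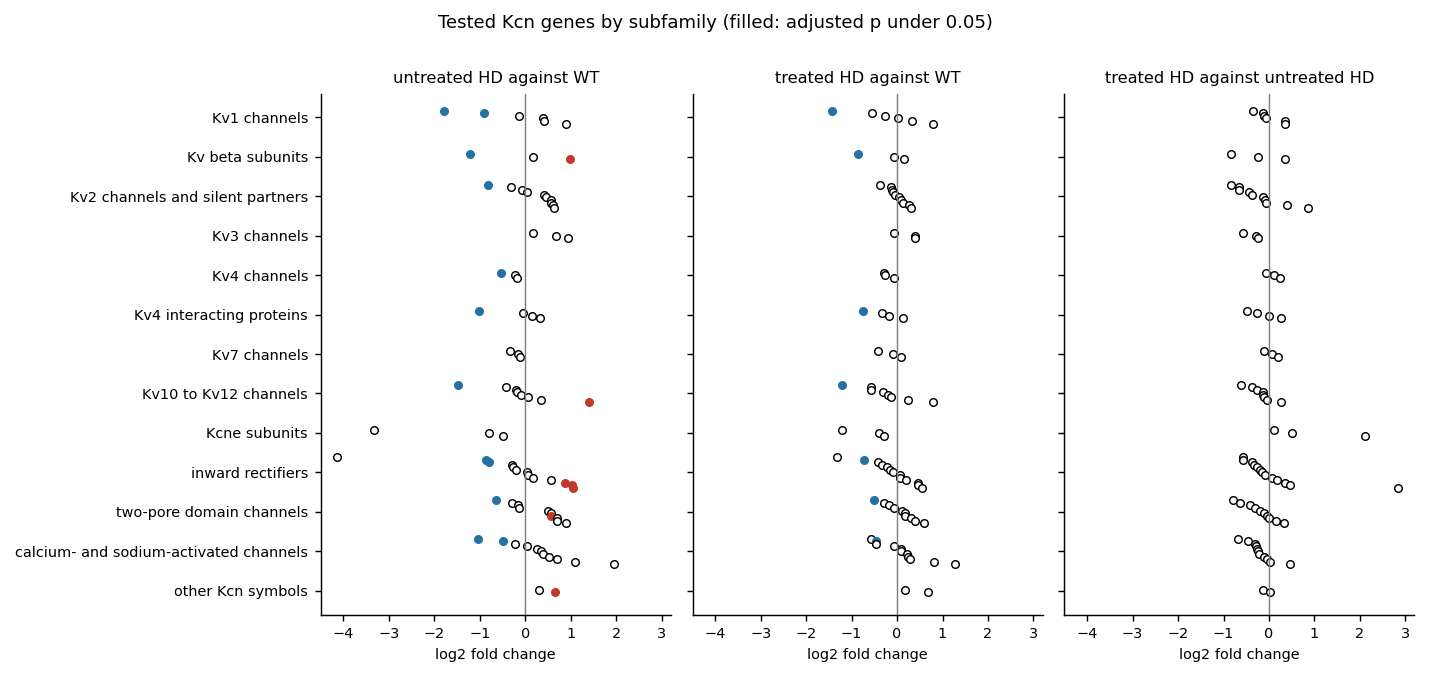
Each point is 1 of 79 of the tested members, placed by its log2 fold change (horizontal axis) and its subfamily (vertical axis) in the 3 comparisons. Filled points passed an adjusted p of 0.05 (blue lower, red higher): 12 lower and 7 higher in untreated HD against WT mice, 7 lower in treated HD against WT mice, and none in treated against untreated HD mice. In untreated HD against WT mice the open points furthest to the left are Kcnj13 and Kcne2. In treated against untreated HD mice these 2 genes lie on the right, at 2.83 and 2.12.

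Treated HD mice were compared with the same WT libraries. All 8 called members were lower, among them Kcna5, Kcnh4, Kcnab1, Kcnip2, Kcnj4, Kcnk2 and Kcnt1, 9.64% of the members where 2.78% of all tested genes were called lower. No member was called higher, where 0.904% of all tested genes were, although 6 had an unadjusted P under 0.05 in that direction and DESeq2 called 1 higher. Past 2-fold with an unadjusted P under 0.05 there were 2 members, Kcna5 and Kcnh4, and 5.22% of all tested genes met that rule. The median log2 fold change was -0.07 over the members and 0.00 over all tested genes. Leaving out treated mouse 1 left 2 calls, and leaving out treated mouse 2 or treated mouse 3 left 1, while leaving out WT mouse 1 gave 17, of which 6 were higher. With the Y-linked term no member was called, all 3 treated mice lacking and all 3 WT mice having those transcripts.

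Among the Kv1 pore subunits, which include channels of axons and slowly inactivating currents, 2 of 6 tested genes fell and none rose. Counts by subfamily, here and below, were not tested as groups. Over all tested genes 6.1% were called lower and 4.58% higher in untreated HD mice. Kcna5 (ENSMUSG00000045534, chromosome 6), which encodes a delayed rectifier subunit, read at 19.9, 49.2 and 33.5 CPM in WT mice, 9.25, 11.9 and 8.38 in untreated HD mice and 13.3, 11.7 and 12.8 in treated HD mice. Every HD mouse lay below every WT mouse, and WT mouse 1 was the lowest of its group. The log2 fold change was -1.79 ± 0.28 (SE) in untreated HD mice (edgeR adjusted p = 0.00627) and -1.44 ± 0.28 in treated HD mice (edgeR adjusted p = 0.0263). The call in treated mice held in 4 of the 9 fits that left out 1 mouse, in which the log2 fold change ranged over -1.72 to -1.07.

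Kcna4 (ENSMUSG00000042604, chromosome 2), the A-type member of the same subfamily, gave 49.3, 65.8 and 81.8 CPM in WT mice, 33.7, 37.4 and 33.3 in untreated HD mice and 46.8, 41.7 and 44.9 in treated HD mice. WT mouse 1 was again the lowest WT animal, only slightly above the highest treated mouse, and the untreated mice lay apart from both other groups. In untreated HD mice its log2 fold change was -0.92 ± 0.16 (edgeR adjusted p = 0.00897), and the difference of treated HD mice from WT was -0.56 ± 0.16, which missed the threshold (edgeR adjusted p = 0.0803). Kcna2 and Kcna6, the Kv1 genes with most counts, did not pass in untreated HD mice, with log2 fold changes of 0.38 ± 0.14 and 0.40 ± 0.14. Kcna3, the Kv1 subunit best known from lymphocytes and activated microglia, read at 1.85, 1.72 and 0.897 CPM in WT mice against 1.82, 3.29 and 3.19 in untreated HD mice, where the groups overlapped (log2 fold change 0.90 ± 0.34, edgeR adjusted p = 0.115). 

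The 3 cytoplasmic beta subunits of Kv1 channels went separate ways. Kcnab1 (ENSMUSG00000027827, chromosome 3), whose product can confer rapid inactivation on Kv1 channels, read at 303, 295 and 402 CPM in WT mice, 141, 166 and 126 in untreated HD mice and 189, 174 and 188 in treated HD mice. The 3 groups did not overlap, and the treated mice lay between the others. Its level in untreated HD mice averaged 43.4% of WT (log2 fold change -1.21 ± 0.14, edgeR adjusted p = 0.00121) and in treated HD mice 55.1% (log2 fold change -0.86 ± 0.13, edgeR adjusted p = 0.0107). The first call held under every alternative tried, while the second was lost when any 1 treated mouse was left out, with log2 fold changes of -0.88 to -0.82 in those fits.

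Kcnab3 (ENSMUSG00000018470, chromosome 11), the least studied of the beta subunits, read at 43.6, 23.6 and 36 CPM in WT mice, 90.7, 57.9 and 55.4 in untreated HD mice and 38.6, 33.6 and 41.8 in treated HD mice. Untreated mouse 1 stood far above its group, and the other untreated mice were still above all WT mice. The log2 fold change of 0.98 ± 0.24 passed in untreated HD mice (edgeR adjusted p = 0.0335) but in only 2 of 9 fits that left out 1 mouse, with values of 0.71 to 1.18. An opposite-strand transcript, Kcnab3os, overlaps this locus and without a stated strand setting the reads of both cannot be told apart. Kcnab2, the beta subunit with most counts, was at 384 ± 41.6 CPM (SD, n = 3) in WT mice and 433 ± 49.7 in untreated HD mice and did not pass (log2 fold change 0.17 ± 0.10).

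**Figure D2:**
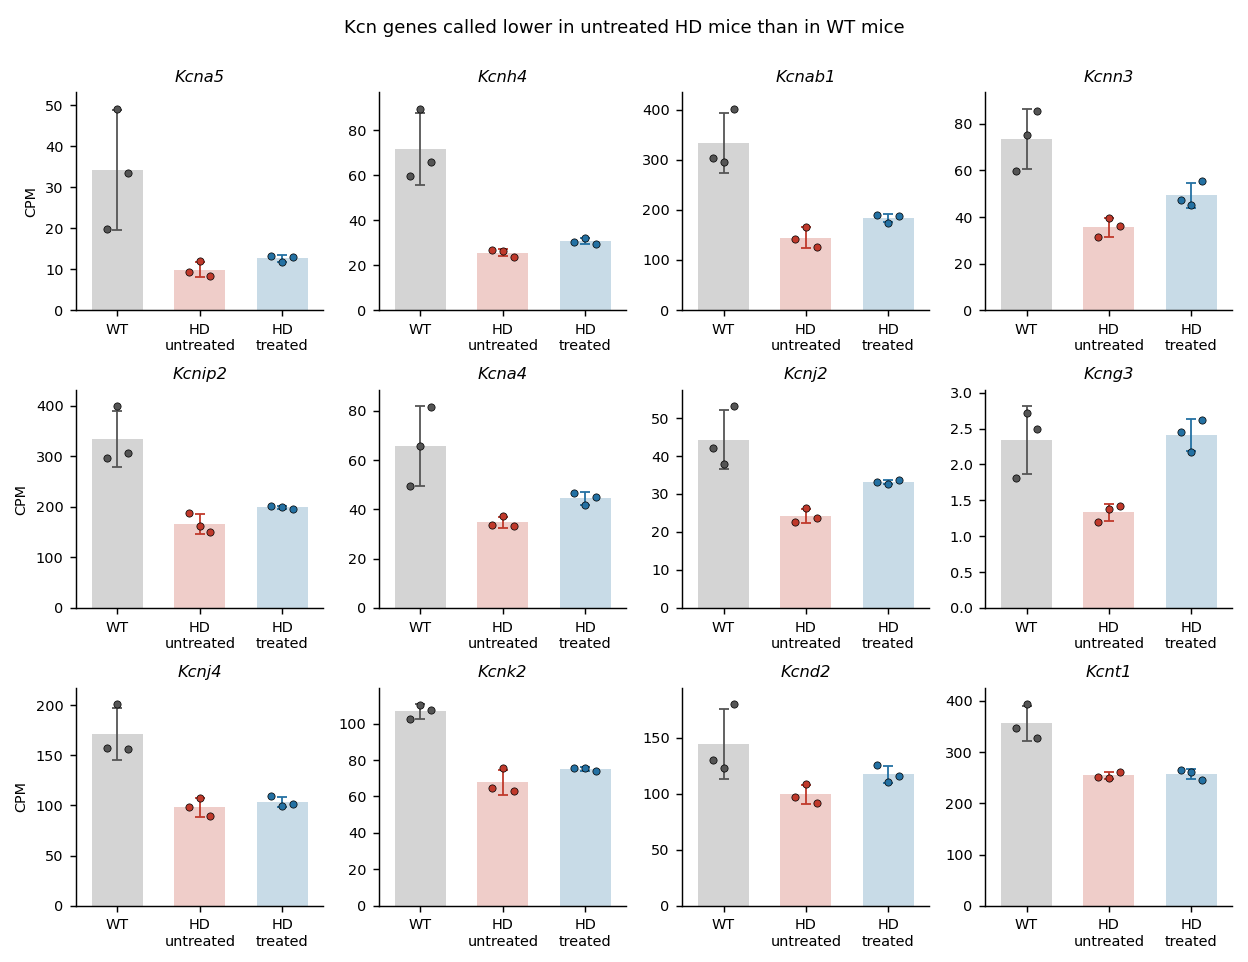
CPM (vertical axes, from 0) of the 12 members called lower in untreated HD mice than in WT mice, in each mouse of the 3 groups, where points are mice, bars group means and whiskers 1 SD. These genes were chosen as lower in these same mice. In every panel the 3 untreated mice lie below the 3 WT mice, which held for 15.1% of all tested genes. Treated mice lie close to untreated mice for Kcnj4 and Kcnt1 and within the WT range for Kcng3.

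Among the Kv4 channels, which carry the A-type current of dendrites, and their interacting proteins, 1 pore subunit and 1 partner fell. Kcnd2 (ENSMUSG00000060882, chromosome 6), the main dendritic Kv4 subunit, read at 129.8, 123 and 180.1 CPM in WT mice, 97.5, 109 and 91.9 in untreated HD mice and 126, 111 and 116 in treated HD mice. The untreated mice lay below all WT mice, while treated mouse 1 reached into the WT range. Compared with WT, untreated HD mice gave a log2 fold change of -0.54 ± 0.14 (edgeR adjusted p = 0.0377), and this call held in 2 of 9 fits that left out 1 mouse, with values of -0.64 to -0.34. In treated HD mice it was -0.30 ± 0.14 (edgeR adjusted p = 0.246).

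Kcnip2 (ENSMUSG00000025221, chromosome 19), a calcium-binding protein that brings Kv4 channels to the membrane, gave 297, 399 and 307 CPM in WT mice, 187, 162 and 149 in untreated HD mice and 201, 199 and 196 in treated HD mice. The 3 groups did not overlap, and the treated mice differed among themselves far less than the WT mice did. Its log2 fold change was -1.01 ± 0.12 in untreated HD mice (edgeR adjusted p = 0.00168) and -0.75 ± 0.12 in treated HD mice (edgeR adjusted p = 0.0121). The latter call was lost when any 1 treated mouse was left out, with values of -0.76 to -0.74 in those fits. Kcnd3 and Kcnip3, the members with the next most counts, gave -0.18 ± 0.12 and -0.05 ± 0.14 in untreated HD mice and did not pass.

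Kv10 to Kv12 channels held both the fall with the smallest adjusted p and the largest called rise. Kcnh4 (ENSMUSG00000035355, chromosome 11), which encodes a Kv12 channel, read at 59.5, 89.6 and 65.6 CPM in WT mice, 26.5, 26.5 and 23.8 in untreated HD mice and 30.3, 32.2 and 29.5 in treated HD mice. All 6 HD mice lay far below the WT range, with a spread of only a few CPM within each HD group. Its level was 35.8% of WT in untreated HD mice (log2 fold change -1.48 ± 0.14, edgeR adjusted p = 0.000599) and 42.9% in treated HD mice (log2 fold change -1.22 ± 0.14, edgeR adjusted p = 0.00331), and both calls held in all 9 fits that left out 1 mouse. Kcnh3, the Kv12 gene with most counts, read lower in every untreated mouse than in any WT mouse but missed the threshold, with -0.43 ± 0.13 (edgeR adjusted p = 0.0659). Kcnh1, a Kv10 channel gene, gave 0.07 ± 0.10.

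Kcnh7 (ENSMUSG00000059742, chromosome 2), a Kv11 gene of the same family as the heart's rapid delayed rectifier, read at 60.9, 21.5 and 29.5 CPM in WT mice, 117, 99.6 and 79.9 in untreated HD mice and 69.3, 62.3 and 61.7 in treated HD mice. WT mouse 1 was well above the other WT mice and just under the lowest treated mouse, and the untreated mice were the highest. Its log2 fold change of 1.41 ± 0.32 in untreated HD mice passed (edgeR adjusted p = 0.0263) in 5 of 9 fits that left out 1 mouse, the value ranging over 1.14 to 1.95. In treated HD mice it was 0.79 ± 0.32, which did not pass (edgeR adjusted p = 0.191). The summed cortical neuron markers were ordered among groups, and WT mouse 1 among WT mice, in the same way as Kcnh7, and their part in this result was not tested.

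Several called genes have 1 annotated start in RefSeq. Promoters of some of them are shown, from falls in the voltage-gated and inward rectifier groups, with Kcnh7 for the rises. Each sequence runs from 250 bases before to 50 after the start in GRCm38.p6, 5′ to 3′ along the gene, with the GC box letters GGGCGG, on either strand, in capitals. The windows are chr11:100759729-100760028 on the minus strand for Kcnh4, chr19:45816014-45816313 on the minus strand for Kcnip2, chr15:79505192-79505491 on the minus strand for Kcnj4, chr11:111065914-111066213 on the plus strand for Kcnj2 and chr2:63184238-63184537 on the minus strand for Kcnh7.
Kcnh4: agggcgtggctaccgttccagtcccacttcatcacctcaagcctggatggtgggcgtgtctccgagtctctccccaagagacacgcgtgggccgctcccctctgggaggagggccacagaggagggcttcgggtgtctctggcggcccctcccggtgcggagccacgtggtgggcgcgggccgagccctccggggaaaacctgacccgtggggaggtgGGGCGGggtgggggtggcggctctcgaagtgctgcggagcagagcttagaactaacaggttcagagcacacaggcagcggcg
Kcnip2: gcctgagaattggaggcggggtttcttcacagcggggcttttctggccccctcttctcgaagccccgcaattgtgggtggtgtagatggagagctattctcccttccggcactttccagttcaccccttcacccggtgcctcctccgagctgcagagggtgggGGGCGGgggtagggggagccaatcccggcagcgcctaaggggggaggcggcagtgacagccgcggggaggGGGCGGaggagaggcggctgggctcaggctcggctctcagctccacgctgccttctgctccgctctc
Kcnj4: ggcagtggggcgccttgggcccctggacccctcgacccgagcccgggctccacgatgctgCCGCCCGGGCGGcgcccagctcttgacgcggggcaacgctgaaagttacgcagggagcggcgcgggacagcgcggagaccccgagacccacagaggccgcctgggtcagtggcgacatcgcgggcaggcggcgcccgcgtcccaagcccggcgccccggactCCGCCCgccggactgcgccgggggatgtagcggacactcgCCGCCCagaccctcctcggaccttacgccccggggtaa
Kcnj2: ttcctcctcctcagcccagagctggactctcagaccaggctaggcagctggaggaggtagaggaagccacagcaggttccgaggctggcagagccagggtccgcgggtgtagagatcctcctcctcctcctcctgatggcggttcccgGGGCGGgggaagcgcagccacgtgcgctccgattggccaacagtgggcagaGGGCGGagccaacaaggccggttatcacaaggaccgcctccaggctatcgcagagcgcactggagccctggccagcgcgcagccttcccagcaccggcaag
Kcnh7: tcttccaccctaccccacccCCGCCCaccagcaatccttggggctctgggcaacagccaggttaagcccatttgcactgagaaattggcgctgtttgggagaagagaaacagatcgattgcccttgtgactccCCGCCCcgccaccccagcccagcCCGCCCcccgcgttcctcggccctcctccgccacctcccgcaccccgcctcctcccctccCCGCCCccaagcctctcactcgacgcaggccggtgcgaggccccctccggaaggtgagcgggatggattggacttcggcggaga
The GC box was found once in the Kcnh4 window, in 4 places in those of Kcnj4 and Kcnh7 and in 2 in those of Kcnip2 and Kcnj2. Other genes called lower with 1 start are not shown. Among these the GC box was found in 4 places for Kcng3, 3 for Kcna4 and 1 for Kcnd2. It was absent for Kcna5, the largest called fall, and for Kcnn3. Promoter windows were found for 66 of the 90 members, 91 windows in all, and 49.5% of them held the GC box against 35.7% of all 32851 windows. Of genes with a window, 9 of 11 called lower and 4 of 5 called higher in untreated HD mice had a GC box in at least 1 window, against 43 of all 66 members. Counted by window, as in the shares above, the GC box was in 9 of 16 windows of genes called lower. It was in 4 of 9 windows (44.4%) of genes called higher. TATAAA, the TATA box letters, was in 4.4% of the members' windows and 13.6% of all windows, and the E-box CAGCTG in 25.3% and 16.3%. The members' windows were 59.3% G or C on average against 53.8% for all windows, so GC-rich letters were more frequent in them to begin with. These matches describe letters and not bound sites.

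The Kv2 channels, which carry much of the delayed rectifier current of neuronal cell bodies, and their electrically silent partners showed 1 fall among 11 tested genes. Kcng3 (ENSMUSG00000045053, chromosome 17), a silent subunit that works only together with Kv2, read at 1.81, 2.71 and 2.49 CPM in WT mice, 1.19, 1.38 and 1.43 in untreated HD mice and 2.45, 2.17 and 2.61 in treated HD mice. The untreated mice were the lowest, and the treated mice lay within the WT range. Its log2 fold change of -0.81 ± 0.22 in untreated HD mice was just past the threshold (edgeR adjusted p = 0.0469), and it stayed past it in 1 of 9 fits that left out 1 mouse, with values of -0.98 to -0.69. Kcnf1, a silent subunit, gave 0.03 ± 0.09 in untreated HD mice and did not pass.

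Among Kv3 channels, which allow fast repetitive firing, Kcnc1, a subunit typical of parvalbumin interneurons, gave 0.16 ± 0.11 in untreated HD mice and did not pass.

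Kv7 channels carry the M-current, which is closed by muscarinic receptors and restrains repetitive firing. Their subunit genes Kcnq3 and Kcnq5 gave -0.16 ± 0.11 and -0.33 ± 0.12 in untreated HD mice, and neither passed.

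Among the inward rectifiers, the Kir2 genes Kcnj2 and Kcnj4 fell, and the G protein-gated genes Kcnj3 and Kcnj6 and the glial gene Kcnj16 rose. The other tested genes of these types did not pass in untreated HD mice, with log2 fold changes of -0.19 ± 0.15 for Kcnj12 and -0.26 ± 0.31 for Kcnj14 among Kir2 genes and 0.57 ± 0.17 for Kcnj9 and -0.28 ± 0.37 for Kcnj5 among G protein-gated genes, and they were added after their values were seen. The types were not tested as groups. Kcnj2 (ENSMUSG00000041695, chromosome 11) read at 42.1, 37.8 and 53.1 CPM in WT mice, 22.6, 26.3 and 23.8 in untreated HD mice and 33.1, 32.7 and 33.8 in treated HD mice. The 3 groups did not overlap, and the treated mice lay within about 1 CPM of each other between untreated and WT mice. The log2 fold change was -0.87 ± 0.12 in untreated HD mice (edgeR adjusted p = 0.00393) and -0.42 ± 0.12 in treated HD mice, which missed the threshold (edgeR adjusted p = 0.0958). Kcnj4 (ENSMUSG00000044216, chromosome 15), whose product is enriched in forebrain projection neurons, gave 157, 201 and 156 CPM in WT mice, 98.1, 107 and 88.9 in untreated HD mice and 109, 99.8 and 101 in treated HD mice. Here the HD groups overlapped each other, and both lay below all WT mice, with -0.80 ± 0.11 in untreated HD mice (edgeR adjusted p = 0.00331) and -0.73 ± 0.11 in treated HD mice (edgeR adjusted p = 0.00948). The latter call held in 7 of 9 fits that left out 1 mouse and was lost without treated mouse 2 (-0.70) or treated mouse 3 (-0.71).

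Kcnj3 (ENSMUSG00000026824, chromosome 2), a subunit of the channels that G protein-coupled receptors open through their beta-gamma subunits, read at 64.8, 31.9 and 56.2 CPM in WT mice, 114, 121 and 80.1 in untreated HD mice and 81.8, 62.8 and 66.5 in treated HD mice. All untreated mice were above all WT mice, and treated mice overlapped both groups. Kcnj6 (ENSMUSG00000043301, chromosome 16), a partner of Kcnj3 in many neurons, was at 10.8, 6.56 and 4.88 CPM in WT mice, 16.1, 12.5 and 16.6 in untreated HD mice and 11.9, 8.16 and 10.2 in treated HD mice, with WT mouse 1 the highest of its group. The log2 fold changes in untreated HD mice were 1.04 ± 0.25 for Kcnj3 (edgeR adjusted p = 0.0302) and 1.03 ± 0.27 for Kcnj6 (edgeR adjusted p = 0.0428). They were called in 5 and 1 of 9 fits that left out 1 mouse, with values of 0.80 to 1.24 and 0.80 to 1.38. In treated HD mice the values were 0.47 ± 0.25 and 0.45 ± 0.27, and neither passed.

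Kcnj16 (ENSMUSG00000051497, chromosome 11), which pairs with Kcnj10 in astrocytes, read at 15.8, 7.08 and 11.4 CPM in WT mice, 20.0, 19.3 and 23.7 in untreated HD mice and 16.6, 16.6 and 16.7 in treated HD mice. The treated mice were nearly identical and lay between the untreated mice and the WT mice. Its rise in untreated HD mice was 0.88 ± 0.24 (edgeR adjusted p = 0.0436), called in 1 of 9 fits that left out 1 mouse with values of 0.64 to 1.17. Kcnj10 itself, the main potassium-buffering channel of astrocytes, was at 198 ± 14.5 CPM (SD, n = 3) in WT mice, 221 ± 11.9 in untreated HD mice and 207 ± 5.01 in treated HD mice, and its log2 fold change of 0.16 ± 0.07 in untreated HD mice did not pass (95% interval -0.00 to 0.33). The 6 astrocyte markers summed to 3682 to 4291 CPM in WT mice and 3758 to 4179 CPM in untreated HD mice. Gfap, 1 of these markers and high in reactive astrocytes, read at 143, 180.0 and 86.2 CPM in WT mice, 231, 264 and 574 in untreated HD mice and 238, 476 and 368 in treated HD mice, with a log2 fold change of 1.39 in untreated HD mice (edgeR adjusted p = 0.0546). Every HD mouse was above every WT mouse for Gfap. The other astrocyte markers gave log2 fold changes of 0.46 for Aqp4, 0.04 for Slc1a3, -0.02 for Slc1a2, -0.06 for Gja1 and -0.30 for Aldoc in untreated HD mice. None of these passed, and the part of the astrocyte markers in the Kcnj16 values was not tested. Kcnj8, a pore subunit of ATP-sensitive channels in pericytes and smooth muscle, gave 0.04 ± 0.23 (95% interval -0.48 to 0.55), and Kcnj11, its neuronal counterpart, gave 0.05 ± 0.08.

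**Figure D3:**
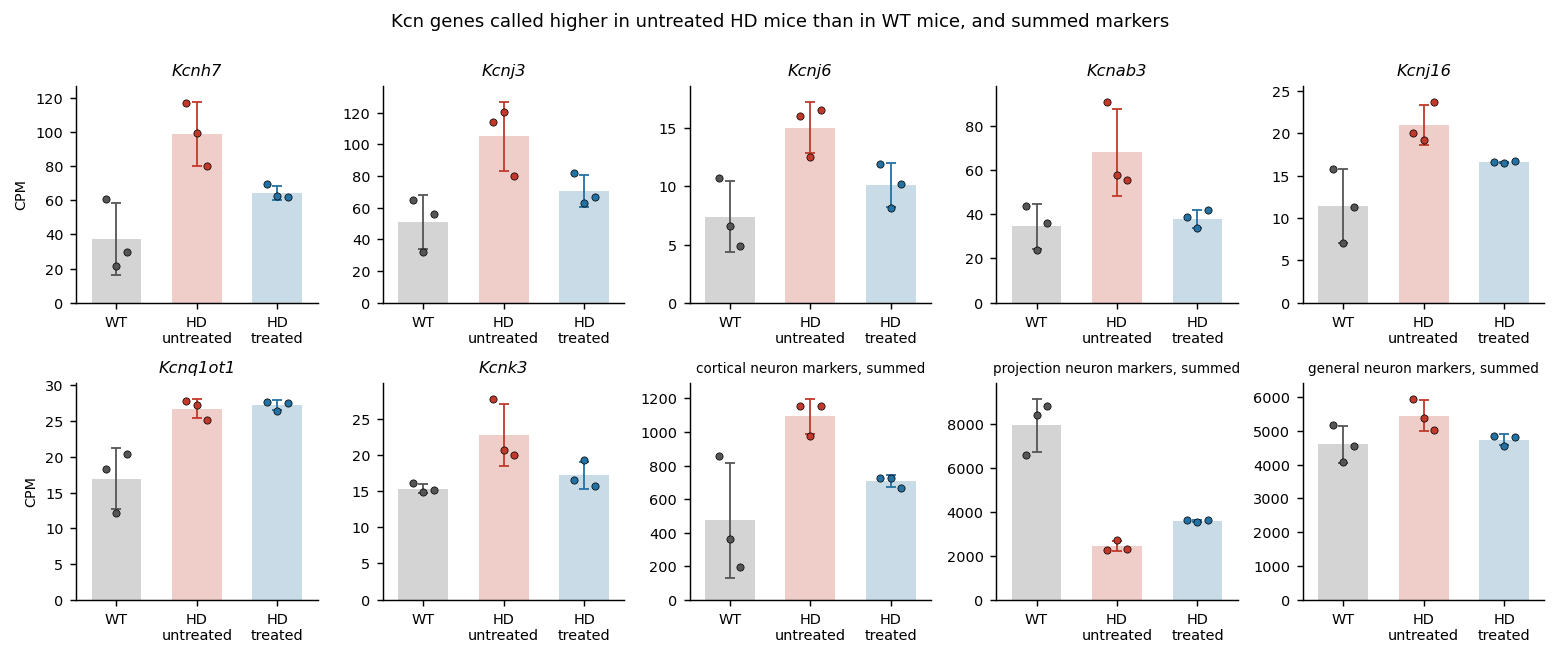
CPM (vertical axes, from 0) of 7 members called higher in untreated HD mice than in WT mice, and the summed CPM of 3 marker lists, in each mouse of the 3 groups. Points are mice, bars group means and whiskers 1 SD. WT mouse 1 (leftmost WT point) is the highest WT mouse in every gene panel but Kcnq1ot1, and for the cortical and general neuron markers.

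The cortical neuron markers were high where most of the called rises were high. Their sums were lowest in WT mouse 2 and WT mouse 3, intermediate in WT mouse 1 and the treated mice and highest in the untreated mice, and 0 of the 5 markers passed an adjusted p of 0.05 in untreated HD mice, with a median log2 fold change of 1.22. The 7 called rises described here were chosen as high in untreated mice, and for 6 of them, Kcnq1ot1 excepted, WT mouse 1 was also the highest WT mouse. Dissection or cell composition was not measured apart from these markers, and their part in these rises was not tested. Projection neuron markers moved the other way, 14 of 14 being called lower in untreated HD mice and 10 of 14 in treated HD mice, alongside the falls of Kcna5, Kcnh4, Kcnab1, Kcnip2, Kcnj2 and Kcnj4. Their part in the falls was not tested either.

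Leak channels of the K2P group had 1 fall and 1 rise among 10 tested genes. Kcnk2 (ENSMUSG00000037624, chromosome 1), a channel opened by stretch and lipids, read at 102, 110.2 and 108 CPM in WT mice, 64.8, 75.7 and 63 in untreated HD mice and 75.5, 75.8 and 73.8 in treated HD mice. The WT mice agreed closely and lay above every HD mouse. The log2 fold change of -0.65 ± 0.08 in untreated HD mice (edgeR adjusted p = 0.00156) was called under every alternative tried, and that of -0.51 ± 0.08 in treated HD mice (edgeR adjusted p = 0.00951) was lost when any 1 treated mouse was left out, with values of -0.51 to -0.49 in those fits. Kcnk3 (ENSMUSG00000049265, chromosome 5), an acid-sensitive leak channel, read at 16.1, 14.9 and 15.1 CPM in WT mice, 27.7, 20.7 and 20.0 in untreated HD mice and 16.6, 19.3 and 15.7 in treated HD mice, and untreated mouse 1 was the highest of all. Its rise of 0.57 ± 0.14 in untreated HD mice (edgeR adjusted p = 0.0343) was called in 2 of 9 fits that left out 1 mouse, with values of 0.40 to 0.66.

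Kcnk9 and Kcnk1, the leak channel genes with most counts, gave 0.71 ± 0.24 and -0.14 ± 0.09 in untreated HD mice, and neither passed. The WT mice spread widely for Kcnk9, at 114, 61.5 and 49.8 CPM, with WT mouse 1 close to the untreated mice at 121, 121 and 124 CPM. Kcnk13, a leak channel of microglia, was at 15.6 ± 1.06 CPM (SD, n = 3) in WT mice and 12.8 ± 2.34 in untreated HD mice and did not pass (-0.29 ± 0.18, 95% interval -0.70 to 0.12), while the 6 microglia markers summed to 227, 216 and 206 CPM in WT mice and 224, 261 and 465 in untreated HD mice.

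Among channels opened by calcium or sodium, 2 of 11 tested genes fell. Kcnn3 (ENSMUSG00000000794, chromosome 3), a small-conductance calcium-activated channel that shapes the pause after a spike, read at 59.9, 75.4 and 85.6 CPM in WT mice, 31.4, 39.4 and 36 in untreated HD mice and 47.5, 45.1 and 55.5 in treated HD mice. The 3 groups did not overlap, with treated mice in the middle. The fall in untreated HD mice, -1.05 ± 0.14 (edgeR adjusted p = 0.00303), was called under every alternative tried, and the difference of treated HD mice from WT, -0.58 ± 0.14, missed the threshold (edgeR adjusted p = 0.0552). Kcnt1 (ENSMUSG00000058740, chromosome 2), a sodium-activated channel, was at 347, 394 and 328 CPM in WT mice, 252, 250.2 and 262 in untreated HD mice and 265, 262 and 246 in treated HD mice. All HD mice lay below the WT mice and the HD groups overlapped, with -0.48 ± 0.08 in untreated HD mice (edgeR adjusted p = 0.00753) and -0.47 ± 0.08 in treated HD mice (edgeR adjusted p = 0.015), the latter lost when any 1 treated mouse was left out. Kcnma1, the large-conductance channel gated by calcium and voltage, gave 0.34 ± 0.14 in untreated HD mice and did not pass (edgeR adjusted p = 0.142).

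Kcnn4, the intermediate-conductance calcium-activated channel of immune cells, was sparse. It was counted 5, 12 and 14 times in the WT libraries, 7, 21 and 98 times in the untreated and 21, 36 and 26 times in the treated libraries. Untreated mouse 3 held more of its counts than any other mouse, and the log2 fold change of 1.95 ± 0.82 in untreated HD mice did not pass (edgeR adjusted p = 0.153) and was 0.38 without that mouse. The same mouse held the most Cd8a, a marker of cytotoxic T cells, which read at 1.16, 2.75 and 19 CPM in untreated HD mice against 0, 0 and 0.133 in WT mice, and the most summed microglia markers. Over the 7 T cell markers the sums were 63.2 to 80.1 CPM in WT mice, 21 to 60.2 in untreated and 35.5 to 44.1 in treated HD mice, most of it in WT mice from Cd4 at 62.6, 79.8 and 73.5 CPM, while Cd3d was at 0 in all WT mice. The part of these cells in the result was not tested.

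The largest fitted changes among all members belonged to Kcnj13 and Kcne2, which did not pass because mice of the same group differed greatly. Kcnj13 (ENSMUSG00000079436, chromosome 1), an inward rectifier of the choroid plexus, read at 0.302, 25 and 10.3 CPM in WT mice, 1.4, 0.268 and 0.339 in untreated HD mice and 1.26, 0.56 and 12.5 in treated HD mice. Kcne2 (ENSMUSG00000039672, chromosome 16), an accessory subunit found in the same epithelium, read at 0.491, 16.5 and 8.6 CPM in WT mice, 2.17, 0.235 and 0.136 in untreated HD mice and 2.17, 0.592 and 8.23 in treated HD mice. WT mouse 2, WT mouse 3 and treated mouse 3 were high for both genes, and these are the 3 libraries with the highest summed choroid plexus markers. The log2 fold changes in untreated HD mice were -4.15 ± 1.51 for Kcnj13 (edgeR adjusted p = 0.108) and -3.33 ± 1.35 for Kcne2 (edgeR adjusted p = 0.137). Without WT mouse 1, Kcnj13 passed, at -4.73 (edgeR adjusted p = 0.0409). The part of choroid plexus tissue in these values was not tested. Kcne1l, the Kcne gene with most counts, gave -0.49 ± 0.26 in untreated HD mice and did not pass.

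**Figure D4:**
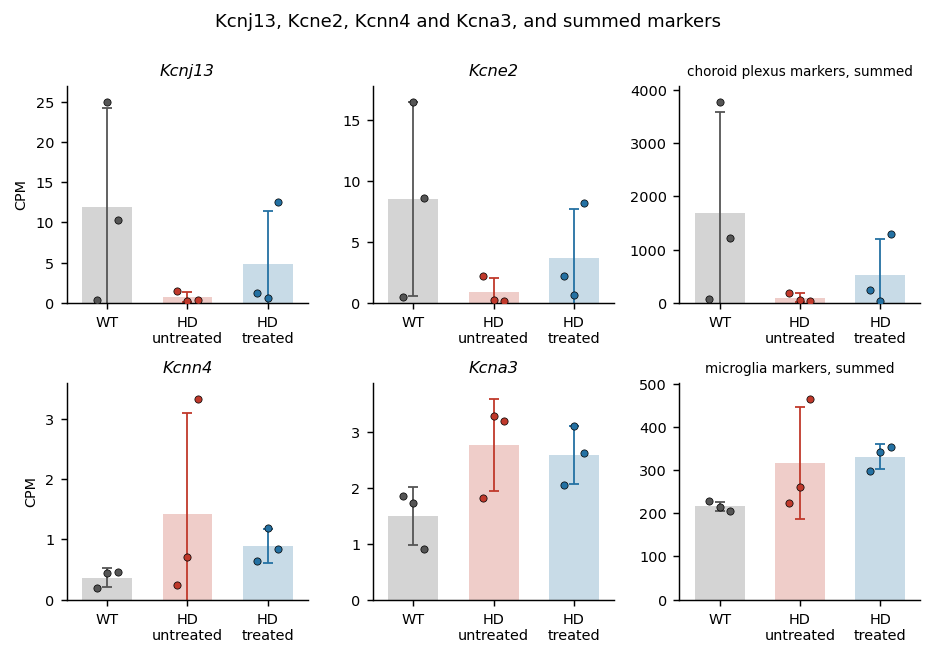
CPM (vertical axes, from 0) of 4 members and the summed CPM of 2 marker lists in each mouse of the 3 groups, where points are mice, bars group means and whiskers 1 SD, drawn down to 0 only. Kcnj13 and Kcne2 are high in WT mouse 2, WT mouse 3 and treated mouse 3, as are the choroid plexus markers, and Kcnn4 is highest in untreated mouse 3.

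Of the remaining members, Kcnq1ot1 (ENSMUSG00000101609, chromosome 7) read at 18.3, 12.1 and 20.3 CPM in WT mice, 27.8, 27.3 and 25.2 in untreated HD mice and 27.7, 26.4 and 27.5 in treated HD mice. Both HD groups lay above all WT mice and overlapped each other. Its log2 fold change was 0.66 ± 0.16 in untreated HD mice (edgeR adjusted p = 0.0353) and 0.68 ± 0.16 in treated HD mice, which narrowly missed the threshold (edgeR adjusted p = 0.0537). The first call held in 3 of 9 fits that left out 1 mouse, with values of 0.47 to 0.82. Kcnrg, which encodes a soluble regulator of Kv channel assembly, gave 0.31 ± 0.38 and did not pass. The 7 members that were not tested because of low counts were Kcne3, Kcna10, Kcnv2, Kcnmb3, Kcnk15, Kcnk18 and Kcnk7, with 15 to 60 counts over all 9 libraries, and nothing can be said of their differences.

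The direct comparison of treated with untreated HD mice asked whether guides against HTT changed these genes in knock-in mice. No member passed an adjusted p of 0.05 in edgeR, nor did any of the 19463 genes tested (0% called), and DESeq2 called 1 member lower. At an unadjusted P under 0.05, 6 members were higher and 15 lower, 7.23% and 18.1% of the 83, where 2.5% of all tested genes were higher and 3% lower. Groups did not overlap for 10 members that were higher and 25 that were lower in treated mice, where this held for 6.92% and 8.83% of all tested genes. None reached the rule of unadjusted P under 0.05 with a 2-fold change, which 0.771% of all tested genes met. The median log2 fold change was -0.14 over the members and -0.01 over all tested genes. The summed CPM of all members ran from 6005 to 6303 in WT mice, 5406 to 6081 in untreated and 5070 to 5321 in treated HD mice. Cortical neuron markers, given above, also summed to less in every treated mouse than in any untreated mouse. So did general neuron markers, at 5948, 5379 and 5029 CPM in untreated and 4861, 4549 and 4816 in treated HD mice. Interneuron markers summed to 559, 518 and 560 CPM in untreated and 435, 437 and 431 in treated HD mice. Of these sums Cck alone gave 209, 178 and 238 CPM and 125, 130 and 115. By log2 fold change Pvalb, Sst, Npy and Cck were lower and Chat, Slc5a7, Th and Nos1 higher in treated mice. The median of this list was -0.004. The part of these markers in the lower values was not tested.

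Kcng4, a silent subunit, was at 12.8, 9.76 and 12.2 CPM in untreated HD mice, 7.53, 6.42 and 5.55 in treated HD mice and 9.36, 5.98 and 9.86 in WT mice, a difference of -0.83 ± 0.21 between the HD groups (edgeR adjusted p = 0.821). Kcng3, another silent subunit, differed in the other direction by 0.86 ± 0.22 (edgeR adjusted p = 0.821). The HD groups did not overlap for either gene.

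Kcnj2 read higher in every treated than in any untreated mouse, by 0.45 ± 0.12 on the log2 scale (edgeR adjusted p = 0.821), and Kcnn3 by 0.47 ± 0.14 (edgeR adjusted p = 0.886). Both genes were among those called lower in untreated HD mice, and the same untreated libraries enter both comparisons. Kcnab3 read lower in treated mice, with a log2 fold change of -0.84 ± 0.24 (edgeR adjusted p = 0.829) and likewise shares its untreated libraries with the comparison in which it was called higher. Kcnip1, a Kv4 interacting protein, was at 21.8, 16.4 and 19.3 CPM in untreated HD mice, 15.9, 12.1 and 13 in treated HD mice and 15.5, 13.8 and 16.8 in WT mice, with a difference of -0.49 ± 0.15 between the HD groups. Kcnj11, the neuronal pore subunit of ATP-sensitive channels, was at 46.2, 42.7 and 40.2 CPM in untreated HD mice, 36.3, 35.2 and 35.8 in treated HD mice and 43.9, 42.5 and 38.2 in WT mice, with a difference of -0.27 ± 0.08. All treated mice were below all untreated and all WT mice for Kcnj11, and neither it nor Kcnip1 passed (both edgeR adjusted p = 0.886).

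**Figure D5:**
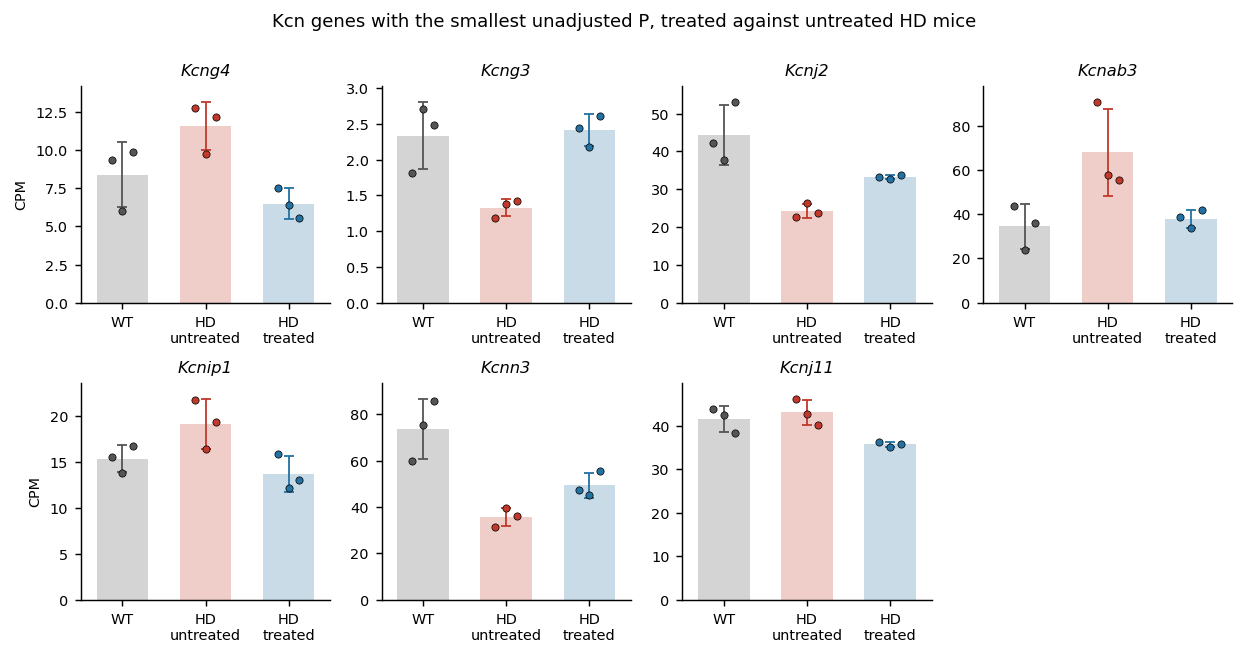
CPM (vertical axes, from 0) in each mouse of the 3 groups for 7 of the 8 members with the smallest unadjusted P between treated and untreated HD mice, none of which passed an adjusted p of 0.05. Points are mice, bars group means and whiskers 1 SD; Kcng3, Kcnj2 and Kcnn3 are higher in the treated than in the untreated mice and the other 4 lower.

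Genes of potassium handling without a Kcn symbol were followed as a list of 29, made of partners of the channels, HCN channels, sodium-potassium pumps and chloride cotransporters that carry potassium. Of the 28 tested, 2 were called higher and 1 lower in untreated HD mice, where 4.58% of all tested genes were called higher and 6.1% lower. No partner was called in treated HD mice against WT, where 0.904% of all tested genes were called higher and 2.78% lower. Between the HD groups no partner was called, nor was any other tested gene. Dpp6 (ENSMUSG00000061576, chromosome 5), a membrane partner of Kv4 channels, read at 235, 280.1 and 263 CPM in WT mice, 193, 201 and 171 in untreated HD mice and 216, 205 and 211 in treated HD mice. The 3 groups did not overlap, and the log2 fold change in untreated HD mice was -0.46 ± 0.09 (edgeR adjusted p = 0.0134). Dpp10, the related partner of Kv4 channels and also added after its values were seen, was higher in every untreated mouse than in any WT mouse and did not pass, with 0.44 ± 0.15 (edgeR adjusted p = 0.0934). Lrrc55 (ENSMUSG00000075224, chromosome 2), an accessory subunit of the large-conductance calcium-activated channel, read at 24.8, 19.4 and 15.1 CPM in WT mice, 37.2, 36 and 25.2 in untreated HD mice and 26.3, 25.4 and 23.7 in treated HD mice, with a log2 fold change of 0.73 ± 0.19 in untreated HD mice (edgeR adjusted p = 0.0424). It was higher in all untreated mice than in any WT mouse, and WT mouse 1 was the highest WT mouse. All 3 calls were lost with the Y-linked term, and 1 to 4 partner genes were called when 1 mouse was left out.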

How the data were processed

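The authors made 3′ mRNA libraries from striatal RNA with an oligo-dT primer and deposited raw counts per Ensembl gene. The methods name STAR, the submitters' processing notes list Trimmomatic 0.39, FastQC 0.11.9, HISAT2 2.2.1 and featureCounts 2.0.1, and the mouse build is not given in the sources used here, so only chromosomes are printed for genes. Reads tagged at the 3′ end do not separate isoforms. Symbols matched 94.1% of gene IDs, which hold 99.8% of counts. The pig libraries of the series were not used here.

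Tests on these counts used edgeR 4.0.16 under R 4.3.3 (filterByExpr, TMM, glmQLFit over all 9 libraries with group as the only term, 6 residual degrees of freedom, glmQLFTest), after recovery of known changes was checked on simulated counts. Each SE was taken as |log2 fold change| over the root of its F statistic, and intervals are 95%. A call is a Benjamini-Hochberg adjusted p under 0.05 over 19463 genes. DESeq2 1.42.0, other scalings and filters, a term for Y-linked transcripts and leaving out each mouse served as alternatives. The labels do not say whether mice were littermates. Named genes were, for each comparison with WT, the 12 largest called falls and rises with a mean of at least 10 counts in the higher group; for treated against untreated HD mice the 8 smallest P; in each subfamily the 2 genes with most counts and the smallest P; 19 fixed genes; and called partners. Members and lists were chosen with earlier results of these data known. Promoters came from RefSeq windows of GRCm38.p6. Protein sequences were not used here, and some genes that the rules name are not reported here.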

Additional observations from a re-analysis of the deposited data

How the results depend on the processing

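The number of members called in untreated HD against WT mice, 21, was 33 with DESeq2, 11 without an expression filter, 10 when only the WT and untreated mice were fitted, 6 with the Y-linked term and 10 at an adjusted p of 0.01, and it ranged from 10 to 30 when 1 mouse was left out. In treated HD against WT mice, 8 became 15 with DESeq2, 0 with the Y-linked term and 3 at an adjusted p of 0.01, and 1 to 17 with 1 mouse left out. Between treated and untreated HD mice, 0 became 1 with DESeq2 and stayed 0 otherwise. Members past 2-fold ranged over 7 to 20 in untreated and 2 to 4 in treated HD mice with 1 mouse left out, and between the HD groups were 1 without a filter, 1 with the Y-linked term and 0 to 1 with 1 mouse left out. Partner calls in untreated HD mice, 3, became 0 with only 2 groups fitted, 0 with the Y-linked term, 0 at an adjusted p of 0.01 and 1 to 4 with 1 mouse left out, and in treated HD mice, 0, became 2 with DESeq2, 1 at 10 counts in every library, 1 with the replicate block and 0 to 2 with 1 mouse left out.

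For mice with the same replicate number, which were separate animals, residuals about their group means correlated at -0.11 to 0.31 over genes. The highest values, 0.26 and 0.31, were between mice 1 and mice 3 of the HD groups. Mice with other numbers were not correlated, so this range cannot decide whether the numbers pair mice. The main fit did not pair them. With the replicate block, 24 members were called in untreated and 10 in treated HD mice against WT, and 0 between the HD groups.

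Fold changes of the reported members that the naming rules gave were recomputed under the alternatives. Those of Htt, Kcnj5, Kcnj9, Kcnj12, Kcnj14, the partners and the markers were not. Of 1373 recomputed values, 1206 kept direction and side of the threshold. Another 120 kept direction and lost the call, 27 kept direction and gained one, and 20 changed sign, none of them on a called value. With the Y-linked term these were, in untreated HD mice, Kcnj8 (-0.045), Kcnk1 (0.062) and Kcnn4 (-0.57), and in treated HD mice Kcng3 (-0.19). With 1 mouse left out, the ranges crossed 0 in untreated HD mice for Kcnf1 (-0.045 to 0.10), Kcnh1 (-0.033 to 0.16), Kcnip3 (-0.24 to 0.031), Kcnj11 (-0.0077 to 0.10), Kcnj8 (-0.065 to 0.23) and Kcnrg (-0.0037 to 0.80), in treated HD mice for Kcnab3 (-0.057 to 0.34) and Kcng3 (-0.12 to 0.17), and between the HD groups for Kcnq1ot1 (-0.015 to 0.059). The causes were not tested. Sex cannot be told apart from group in treated against WT mice, and 3 mice per group, which the labels do not tie to litters, limit every call.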
